A study of Mus musculus with 8 samples.

Results

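The hexosamine pathway was followed through 9 genes in mouse tendon stem cells (TSCs): Gfpt1, Gfpt2, Gnpnat1, Pgm3 and Uap1, which make the sugar donor UDP-GlcNAc, Gnpda1 and Gnpda2, which run against its first step, Nagk, which recycles the free sugar, and Ogt, which attaches the sugar to proteins. They were chosen by symbol from the 19301 genes listed, and all 9 were found and passed the low-value filter that left 11710 genes for testing. The cells were primary TSCs, which the study took by collagenase digestion from the patellar tendons of C57BL/6J mice. One group of 4 libraries came from cells kept for 4 days in low glucose medium (5.5 mM glucose with DMSO). The other group of 4 came from cells kept as long in high fat, high glucose (HFHG) medium, in which the glucose was raised and 300 µM palmitic acid was added. The HFHG medium was used to imitate hyperglycemia and obesity, and since it changed glucose and fatty acid at once, the parts played by each cannot be told apart. The study describes the libraries as 4 biological replicates per group without saying which animals or cultures they came from, so p-values measure only the spread between these libraries.

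The pathway takes fructose-6-phosphate from glycolysis and an amino group from glutamine and, in a short chain of reactions, turns them into UDP-GlcNAc. This nucleotide sugar feeds the N-glycans of secreted proteins, hyaluronan and the O-GlcNAc mark, a single sugar placed on serine and threonine of nuclear and cytosolic proteins. Because the pathway draws on glucose, glutamine and acetyl-CoA, it is often described as a nutrient sensor, and the spliced form of XBP1, a factor of the unfolded protein response, is known to induce several of its genes.

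The sequences upstream of the genes for the first step (Gfpt1 and Gfpt2) and for the last step (Uap1) of synthesis are shown because these genes moved in the same direction. Each is the 250 bases before the RefSeq start site in GRCm38.p6, written 5′ to 3′ on the gene's own strand, with CCACG or its reverse complement CGTGG (the last 5 letters of the ER stress element) in capitals.
Gfpt1, chr6:87042596-87042845, plus strand: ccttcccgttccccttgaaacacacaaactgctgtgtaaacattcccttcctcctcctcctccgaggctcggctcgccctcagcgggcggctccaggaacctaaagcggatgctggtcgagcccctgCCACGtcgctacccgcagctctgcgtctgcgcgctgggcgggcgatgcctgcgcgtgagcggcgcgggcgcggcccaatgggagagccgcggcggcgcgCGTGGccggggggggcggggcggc
Gfpt2, chr11:49793905-49794154, plus strand: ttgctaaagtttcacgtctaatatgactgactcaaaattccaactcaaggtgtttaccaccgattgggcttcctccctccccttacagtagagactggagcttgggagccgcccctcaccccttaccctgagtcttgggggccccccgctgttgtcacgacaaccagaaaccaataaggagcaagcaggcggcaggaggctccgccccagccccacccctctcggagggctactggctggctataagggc
Uap1, chr1:170174965-170175214, minus strand: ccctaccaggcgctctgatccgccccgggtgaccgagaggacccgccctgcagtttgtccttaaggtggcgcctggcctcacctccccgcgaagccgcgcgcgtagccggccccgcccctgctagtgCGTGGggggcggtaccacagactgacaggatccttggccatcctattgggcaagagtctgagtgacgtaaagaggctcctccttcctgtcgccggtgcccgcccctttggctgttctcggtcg
The Gfpt1 stretch held CCACG at 123 and its complement at 24 bases before the start site, the Uap1 stretch held the complement at 123 bases before it, and the Gfpt2 stretch held neither. Pgm3, which also rose in HFHG, is not shown. The 250 bases before the start used for its window held neither. The RefSeq promoter table, whose windows run from 250 bases before to 50 after a start, had 8 windows for 7 of the 9 genes, 2 of them for Ogt, and none that was used for Gnpnat1 and Gnpda1. In these, CCACG on either strand was found in 3 windows, those of Gfpt1, Uap1 and Pgm3. The Pgm3 match lay 23 bases past the start used for its window, which is inside the gene position given below. Of all 32851 windows, 32.8% held CCACG. None of the 8 windows held the E-box CACGTG (7.15% of all windows), the unfolded protein response element TGACGTGG (0.676%) or the ATF4 element TTGCATCA (0.895%) on either strand. TGACGTGG contains the reverse complement of CCACG, so matches to these 2 motifs overlap. A match says only that the letters are there.

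The libraries held between 34308108 and 37362725 reads, recovered from the deposited values, and 99.8% of them fell on the listed genes. In each library between 532 and 6174 reads lay behind the value of each of the 9 genes, so that counting error alone was 1.27% to 4.34% of a value. LG replicate 4 stood apart from its group: its chi-square per gene against the other low glucose libraries was 8.17 to 12.0, while the remaining 9 pairs within groups gave 3.45 to 4.77. Levels are given as FPKM, reads scaled by gene length and library depth. Tendon markers were present in both groups but the defining ones were low, with Scx at 2.27 ± 0.558 FPKM (SD, n = 4) in HFHG and 1.45 ± 0.336 in low glucose medium and Tnmd at 1.10 ± 0.0908 and 0.614 ± 0.298. Of the 8 tendon markers, 7 were called higher and Mkx lower in HFHG, where 34% and 30.8% of all genes tested were called higher and lower. The Scx libraries of the groups overlapped, and 10 to 59 reads lay behind each Tnmd value. By qPCR, the study reported lower Scx and Tnmd in HFHG medium and no significant difference in Mkx. The culture time of that qPCR is not stated. It also reported the change at the protein level, in blots that included TNMD. Leukocyte markers were also present. Their summed level was 1711 to 1762 FPKM in HFHG and 1875 to 1955 in low glucose medium, most of it from Lyz2, and 7 of the 8 that passed the filter were lower in HFHG (6 to 8 under other scalings), with Ptprc at 1.98 ± 0.192 and 2.26 ± 0.167 FPKM and Cd163 near 0 in both groups. In bulk RNA, fewer cells of a type and less RNA per cell cannot be told apart.

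All 9 genes differed between the media, 4 higher and 5 lower in HFHG. Gfpt1, Gfpt2, Pgm3 and Uap1 were 1.16- to 1.34-fold higher, and Gnpnat1, Gnpda1, Gnpda2, Nagk and Ogt fell to between 0.553 and 0.894 of their low glucose level. Differences were tested with limma on log2(FPKM + 0.1) and the adjustment followed Benjamini and Hochberg over all 11710 genes. The background was broad. Of all genes tested 64.8% were called at an adjusted p below 0.05, with 34% higher and 30.8% lower in HFHG, so a call by itself was common. The groups did not overlap in any of the 9 genes, which was also so for 59.2% of all genes tested. None of the 9 genes passed the study's threshold of a fold change above 2 with p below 0.05, against 5.33% of all genes tested, although all 9 had an unadjusted p below 0.05 in limma. The 5.33% is 624 genes of the limma fit, not the study's own calls. At that threshold the study reported more genes higher in HFHG alone, and its test is not named. The median absolute log2 fold change was 0.35 over the 9 genes and 0.25 over all genes tested, and the median signed log2 fold change was −0.16 and 0.02.

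**Figure D1:**
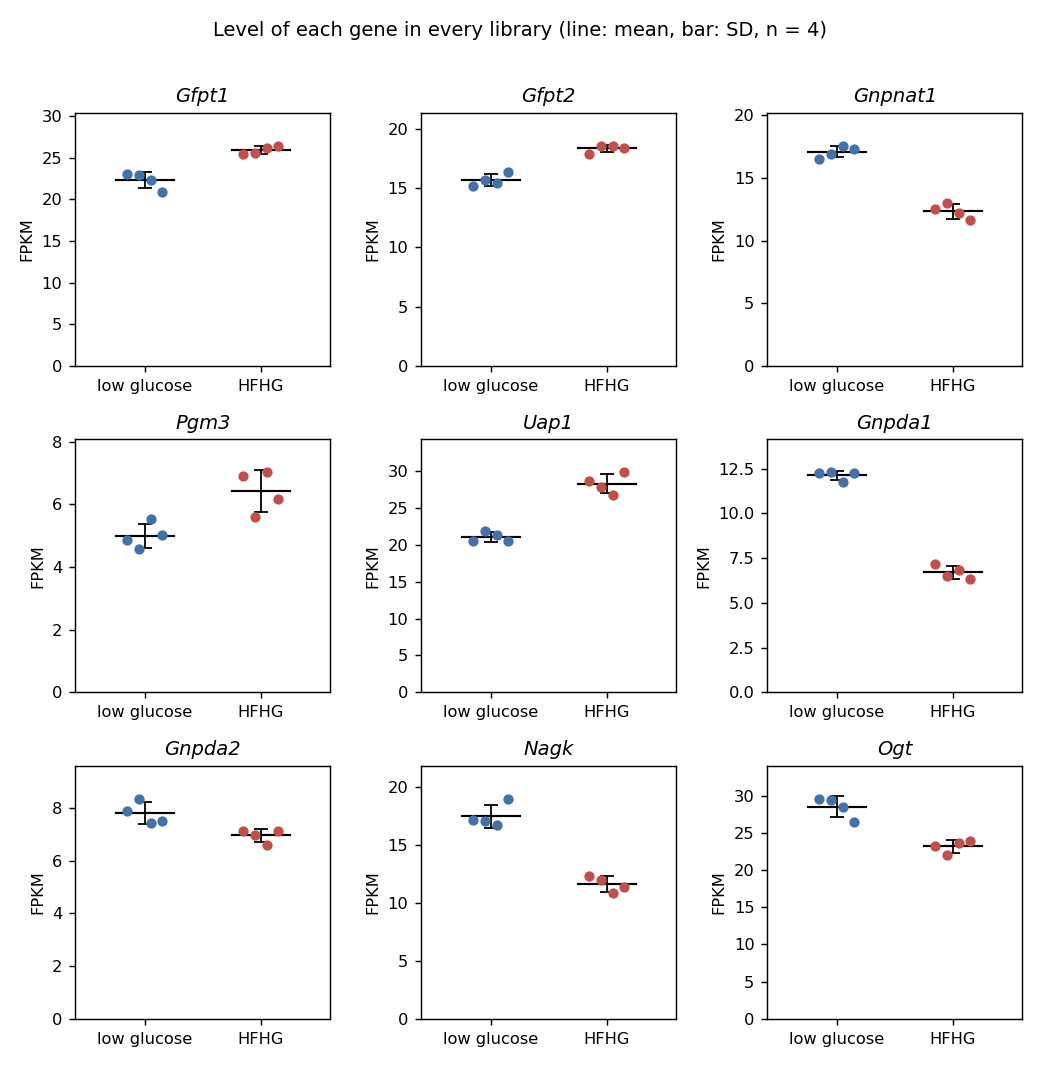
Level of each of the 9 genes in FPKM (y axis, from 0) in the 4 low glucose libraries (blue points) and the 4 HFHG libraries (red points), with the mean as a line and the SD as a bar. The points of the groups do not overlap in any panel. Gnpda1, the gene with the largest absolute log2 fold change, lies at 6.34 to 7.15 in HFHG and at 11.8 to 12.3 in low glucose medium.

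Glutamine-fructose-6-phosphate transaminase, the enzyme of the first and rate-limiting step, is encoded by Gfpt1 and Gfpt2, and both genes rose by a similar amount. Gfpt1 (chr6:87042846-87092207) was at 25.46, 25.502, 26.12 and 26.38 FPKM in the HFHG libraries and at 23.0, 22.9, 22.3 and 20.9 in the low glucose libraries. The lowest of these 8 values was LG replicate 4. Its log2 fold change was 0.22 (SE 0.0371, 95% confidence interval 0.14 to 0.30, adjusted p = 2.23e-04), or 16.2% above low glucose medium, and 0.19 without LG replicate 4. Gfpt2 (chr11:49794155-49838620) was at 17.9, 18.5, 18.6 and 18.4 FPKM in HFHG and at 15.2, 15.7, 15.5 and 16.4 in low glucose medium. Here LG replicate 4 was the highest of its group and still lay under every HFHG library. The log2 fold change of Gfpt2 was 0.23 (SE 0.0361, 95% confidence interval 0.15 to 0.31, adjusted p = 1.27e-04), or 17.1% above low glucose medium, and 0.25 without LG replicate 4.

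The 3 genes that carry glucosamine-6-phosphate on to UDP-GlcNAc did not move together. Gnpnat1, the acetyltransferase that follows the first step and uses acetyl-CoA, was at 12.5, 13.0, 12.2 and 11.6 FPKM in HFHG and at 16.5, 16.9, 17.5 and 17.3 in low glucose medium. Every HFHG library lay below every low glucose library, and Gnpnat1 (chr14:45376421-45388987) fell by 0.47 on the log2 scale (SE 0.0430, adjusted p = 8.70e-07), a change of −27.8% from low glucose medium. It was the only gene of the chain to UDP-GlcNAc that was lower in HFHG. Pgm3 (chr9:86552476-86571878), the mutase that moves the phosphate from the sixth to the first carbon, was at 6.89, 5.60, 7.02 and 6.18 FPKM in HFHG and at 4.86, 4.59, 5.52 and 5.02 in low glucose medium. The groups nearly touched, with HFHG replicate 2 at 5.60 and LG replicate 3 at 5.52, and Pgm3 had the largest SE of the 9 genes. It rose by 0.35 on the log2 scale (SE 0.0798, adjusted p = 0.00182). Uap1 (chr1:170141223-170174964), the pyrophosphorylase that joins the sugar to UTP in the last step, rose from 20.4, 21.8, 21.3 and 20.4 FPKM in low glucose medium to 28.6, 27.8, 26.8 and 29.7 in HFHG. Its log2 fold change of 0.42 (SE 0.0396, adjusted p = 9.97e-07), or 34.5%, was the largest increase among the 9 genes in the fit as reported.

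Gnpnat1, Pgm3 and Gnpda2 overlap an annotated gene on the opposite strand (GENCODE M21). The library kit keeps strand, but whether the counting used it is not given in the sources used here, so reads of such a pair may not have been kept apart. Styx shares 28580 bases with Gnpnat1 as GENCODE draws it, which is longer than the RefSeq position given above. It was at 1.66 ± 0.126 FPKM in HFHG and 1.79 ± 0.104 in low glucose medium (adjusted p = 0.308, limma), while Gnpnat1 stood several times above it. Dop1a, which shares 1547 bases with the end of Pgm3, was higher in HFHG, as Pgm3 was, at 3.02 ± 0.258 against 1.84 ± 0.153 FPKM (log2 fold change 0.68, adjusted p = 1.78e-05, limma). Its part in the Pgm3 value was not tested. Guf1, which shares 2866 bases with Gnpda2, was at 2.40 ± 0.160 and 2.32 ± 0.103 FPKM (adjusted p = 0.618, limma).

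Gnpda1 and Gnpda2 encode glucosamine-6-phosphate deaminases, which return glucosamine-6-phosphate to fructose-6-phosphate and ammonia, and both were lower in HFHG by unlike amounts. Gnpda1 (chr18:38327537-38338993) was at 7.15, 6.53, 6.84 and 6.34 FPKM in HFHG and at 12.3, 12.3, 11.8 and 12.2 in low glucose medium. This was the largest change of the 9 genes: Gnpda1 was 1.81-fold lower in HFHG, a fall by 0.85 on the log2 scale (SE 0.0480, 95% confidence interval −0.95 to −0.74, adjusted p = 8.71e-09). Gnpda2 (chr5:69574998-69592332) was at 7.14, 6.98, 6.59 and 7.12 FPKM in HFHG and at 7.88, 8.34, 7.41 and 7.52 in low glucose medium. The nearest libraries of the groups, HFHG replicate 1 and LG replicate 3, were 7.14 and 7.41 FPKM. The fall by 0.16 (SE 0.0528, adjusted p = 0.0183) was the smallest of the 9 and did not hold in every setting: the adjusted p was 0.144 after the libraries were rescaled to the same sum, 0.0588 without HFHG replicate 3 and 0.0583 without LG replicate 2, with the same direction each time.

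Nagk, the kinase that returns free GlcNAc from broken-down glycans to the pathway, was also lower in HFHG. It was at 12.4, 12.0, 10.9 and 11.3 FPKM in HFHG and at 17.1, 17.1, 16.8 and 19.0 in low glucose medium. LG replicate 4 was the highest library, and the other low glucose libraries stood above all HFHG libraries as well. Nagk (chr6:83794983-83802556) was 1.502-fold lower in HFHG, a fall by 0.58 on the log2 scale (SE 0.0522, adjusted p = 6.82e-07), and by 0.54 without LG replicate 4. The summed level of the leukocyte markers was lower in the same libraries (1711 to 1762 against 1875 to 1955 FPKM), most of it from Lyz2. Single markers changed by unlike amounts, Lyz2 by −7.24%, Adgre1 by −30.2% and C1qa by −49.2%, while Ptprc was not called. The part of these markers in this result and in those of Gnpda1, Gnpda2, Gnpnat1 and Ogt was not tested.

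Ogt, the sole transferase that places O-GlcNAc on nuclear and cytosolic proteins, had the highest level of the 9 genes in low glucose medium and was lower in HFHG. It was at 29.6, 29.4, 28.5 and 26.5 FPKM in low glucose medium and at 23.26, 21.99, 23.62 and 23.88 in HFHG. The lowest low glucose library, replicate 4, was above the highest HFHG library. Ogt (chrX:101640011-101684351) fell by 0.30 on the log2 scale (SE 0.0420, 95% confidence interval −0.39 to −0.20, adjusted p = 4.65e-05), and by 0.33 without LG replicate 4. Oga, the hydrolase that removes the mark, moved the other way. Its level was 19.5, 18.8, 18.3 and 18.3 FPKM in HFHG and 16.9, 16.5, 16.1 and 15.8 in low glucose medium, a log2 fold change of 0.20 (SE 0.0377, adjusted p = 5.27e-04). Eogt, which adds O-GlcNAc to secreted and membrane proteins inside the ER, was at 5.27 ± 0.414 and 4.98 ± 0.270 FPKM and was not called (adjusted p = 0.324, limma). These are RNA levels, and neither protein amount nor the mark itself was measured here.

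**Figure D2:**
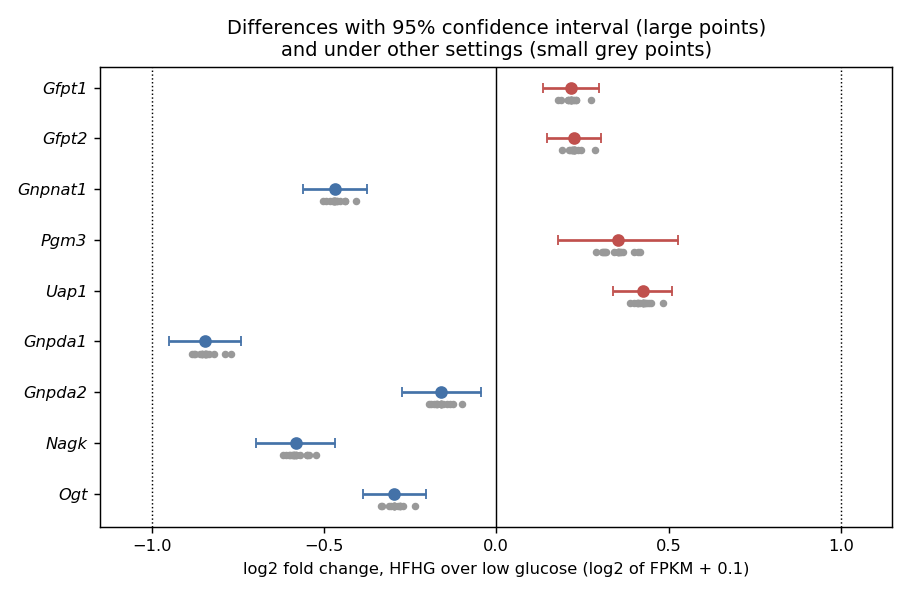
The log2 fold change of each gene, HFHG over low glucose, on the scale of log2(FPKM + 0.1) (x axis), with its 95% confidence interval from limma (large points; red higher, blue lower in HFHG) and the values under 17 other settings (small grey points). The dotted lines mark a 2-fold change, which no gene reaches, and for each gene all grey points lie on the same side of 0 as the main value.

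On the FPKM scale, which is per length, the order of the levels differed between the media. In low glucose medium Ogt was highest (28.5 ± 1.42 FPKM), followed by Gfpt1 (22.3 ± 0.963) and Uap1 (21.0 ± 0.673), whose ranges overlapped each other. Nagk (17.5 ± 1.004) and Gnpnat1 (17.1 ± 0.441) came next and also overlapped, and Gfpt2, Gnpda1, Gnpda2 and Pgm3 followed without overlap between neighbours. In HFHG Uap1 was highest (28.2 ± 1.27 FPKM), then Gfpt1 (25.9 ± 0.459), Ogt (23.2 ± 0.835) and Gfpt2 (18.4 ± 0.296), again without overlap. Gnpnat1 (12.3 ± 0.597) and Nagk (11.6 ± 0.668) overlapped each other, as did Gnpda2 (6.96 ± 0.253) with Gnpda1 (6.71 ± 0.358) and Gnpda1 with Pgm3 (6.42 ± 0.662). Pgm3 was last in both media. The sum over the 9 genes was 139.7 ± 1.70 FPKM in HFHG and 146.9 ± 1.57 in low glucose medium.

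Ratios of FPKM within a library do not depend on how libraries are scaled to each other. Among the 5 ratios computed, 4 differed between the media without overlap. The two-sided test by exact permutation, with 70 ways to arrange the libraries, gave p = 0.0286 for each of the 4. That is the smallest it can give (0.0357 adjusted over the 5 ratios). For each of the 4, this outcome was fixed by the gene levels above. Except for Gnpda1 to Gnpda2, the genes above and below the line moved in opposite directions without overlap. Gnpda1 and Gnpda2 both fell, but their ranges left no room for the ratios to overlap. Gnpda1 lay at 6.34 to 7.15 FPKM in HFHG and 11.8 to 12.3 in low glucose medium, and Gnpda2 at 6.59 to 7.14 and 7.41 to 8.34. The tests of the 4 ratios therefore add nothing to the single genes. The summed level of the first-step genes Gfpt1 and Gfpt2 over that of the opposing deaminase genes was 3.04, 3.26, 3.33 and 3.33 in the HFHG libraries and 1.89, 1.87, 1.97 and 1.88 in low glucose medium. This is a difference of 0.76 on the log2 scale (SE 0.0350), with the upper sum higher and the lower sum lower in HFHG. Between the deaminases themselves, Gnpda1 stood at 1.56 ± 0.0654 times the level of Gnpda2 in low glucose medium and at 0.966 ± 0.0664 times in HFHG, so that the pair came to nearly equal levels (log2 difference −0.69, SE 0.0584).

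The ratio of the salvage gene Nagk to Gfpt1 plus Gfpt2 was 0.285, 0.273, 0.243 and 0.253 in the HFHG libraries and 0.449, 0.442, 0.444 and 0.509 in low glucose medium. The difference on the log2 scale was −0.81 (SE 0.0709), and −0.76 without LG replicate 4. The ratio of Ogt to Oga was 1.196, 1.167, 1.292 and 1.304 in the HFHG libraries and 1.74, 1.79, 1.78 and 1.68 in low glucose medium, a log2 difference of −0.50 (SE 0.0448). Ogt was thus above Oga in all 8 libraries, and by less in each HFHG library. The fifth ratio, of Gfpt2 to Gfpt1, was 0.710 ± 0.0127 in HFHG and 0.706 ± 0.0532 in low glucose medium, with overlapping libraries (exact two-sided permutation p = 0.857, log2 difference 0.01, SE 0.0545). Its low glucose libraries spread from 0.661 to 0.783, with LG replicate 4 the highest, and without that library the log2 difference was 0.06 (exact permutation p = 0.0571, the smallest that 35 arrangements can give).

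**Figure D3:**
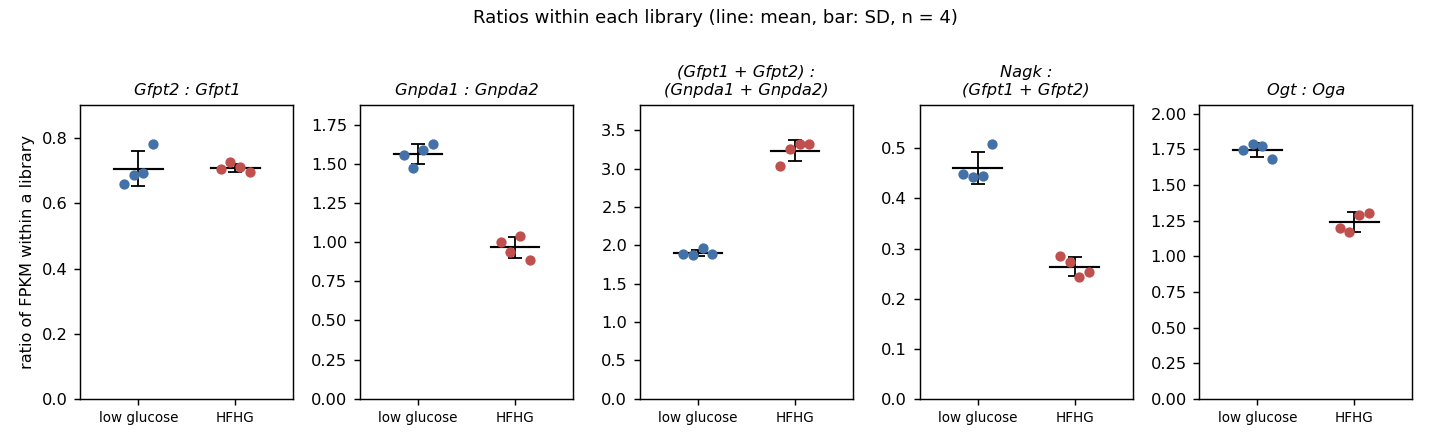
Ratio of FPKM values within each library (y axis, from 0, no unit) for the 5 pairs of genes or sums named above the panels, with low glucose libraries in blue, HFHG libraries in red, the mean as a line and the SD as a bar. The groups overlap for Gfpt2 to Gfpt1 and are apart in the other 4 panels.

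The genes around the pathway were described by lists, with all counts at an adjusted p below 0.05 in limma. Over all genes tested the median log2 fold change was 0.02, and 34% were called higher and 30.8% lower in HFHG. Calls in both directions within a list are therefore common. Of 7 genes that lead from glucose to fructose-6-phosphate and onward, 6 were lower in HFHG and 1 higher (median log2 fold change −0.30). Hk2, the inducible hexokinase, fell from 46.5 ± 0.884 to 16.4 ± 0.412 FPKM (log2 fold change −1.49, adjusted p = 9.90e-13), and Gpi1, which makes fructose-6-phosphate, from 378.5 ± 7.90 to 234.3 ± 2.91 (−0.69, adjusted p = 3.90e-11). Pfkm, a phosphofructokinase that draws the same sugar into glycolysis, was the one that rose (0.53, adjusted p = 2.36e-06). Of 5 genes of glutamine supply and use, 1 was higher and 3 were lower. Glul, which makes glutamine, rose from 29.1 ± 0.917 to 53.6 ± 0.980 FPKM (0.88, adjusted p = 9.81e-11), while the glutamine transporter gene Slc1a5 (−0.59, adjusted p = 1.13e-07) and the low Gls2 (−0.56, adjusted p = 0.00728) fell.

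Among 8 tested genes of other amino sugar steps, 4 were lower and 2 higher, with a median log2 fold change of −0.10. Nanp was below the filter. Uap1l1, a relative of Uap1, changed against it, from 112.8 ± 8.24 FPKM in low glucose medium to 45.1 ± 1.23 in HFHG (log2 fold change −1.32, adjusted p = 6.96e-11). Renbp, the epimerase that turns GlcNAc into N-acetylmannosamine, fell from 68.0 ± 4.13 to 30.8 ± 0.820 FPKM (−1.14, adjusted p = 1.27e-10). Gne, which uses UDP-GlcNAc to start sialic acid synthesis, rose from 3.95 ± 0.106 to 5.95 ± 0.260 FPKM (0.58, adjusted p = 1.28e-06).

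Genes that release GlcNAc in the lysosome, the sugar that Nagk takes up, were mostly lower, 4 of 5 with a median log2 fold change of −0.61, and Aga was higher (0.10, adjusted p = 0.00978), a call lost under median-ratio scaling. Naglu fell from 89.5 ± 3.07 to 49.0 ± 1.62 FPKM (−0.87, adjusted p = 2.01e-10), and Hexa, a subunit of a lysosomal hexosaminidase, from 212.5 ± 5.80 to 137.0 ± 2.33 (−0.63, adjusted p = 3.21e-10). The leukocyte markers were lower in the same libraries, with C1qa at 18.6 ± 0.549 FPKM in HFHG and 36.6 ± 2.68 in low glucose medium, Adgre1 at 26.5 ± 1.23 and 38.04 ± 1.28, and Lyz2 at 1637 ± 19.4 and 1765 ± 32.6. Their part in the lower Nagk, Renbp and lysosomal genes was not tested.

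Genes that spend UDP-GlcNAc were split. Of 9 N-glycan genes, 4 were higher and 3 lower, with a median log2 fold change of 0.04 that was −0.09 under quantile normalization. Of those called, Mgat3 (0.51, adjusted p = 1.33e-04), Mgat1 (0.47, adjusted p = 5.99e-08) and Mgat5 (0.41, adjusted p = 1.64e-04) changed most, and all 3 rose. Mgat1 went from 18.3 ± 0.283 to 25.4 ± 0.643 FPKM. Of 4 nucleotide sugar transporters Slc35d1 alone was called in the fit as reported, and rose from 2.12 ± 0.265 to 3.26 ± 0.190 FPKM (0.60, adjusted p = 8.70e-05), while 1 more was called under each of the other scalings. The hyaluronan synthase Has2 was near the filter at 0.831 ± 0.160 FPKM in HFHG and 0.581 ± 0.127 in low glucose medium with overlapping libraries (0.45, adjusted p = 0.0260, a call lost under quantile normalization), and Has1 and Has3 were below it.

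The lists for the stress pathways that are known to reach hexosamine genes were mostly lower. Their part in the changes of the 9 genes, in either direction, was not tested. Of 6 genes linked to XBP1 in ER stress, 5 were lower and none was higher, with a median log2 fold change of −0.63. Sdf2l1 fell from 142.1 ± 9.30 to 40.7 ± 0.896 FPKM (−1.80, adjusted p = 2.04e-12), the chaperone gene Hspa5 from 1855 ± 14.9 to 898.4 ± 7.03 (−1.05, adjusted p = 2.35e-13) and Dnajb9 from 78.8 ± 2.49 to 40.0 ± 1.79 (−0.98, adjusted p = 1.53e-10). Xbp1 itself was at 66.8 ± 1.67 and 68.5 ± 3.08 FPKM in HFHG and low glucose medium and was not called (adjusted p = 0.376, limma), and a gene-level value does not tell its spliced form from the unspliced one. Of 6 genes of the ATF4 list, 5 were lower and 1 higher, with a median of −0.80, and Trib3 (−1.81, adjusted p = 5.63e-12), Ddit3 (−1.57, adjusted p = 2.46e-12) and Chac1 (−0.94, adjusted p = 8.98e-09) changed most.

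**Figure D4:**
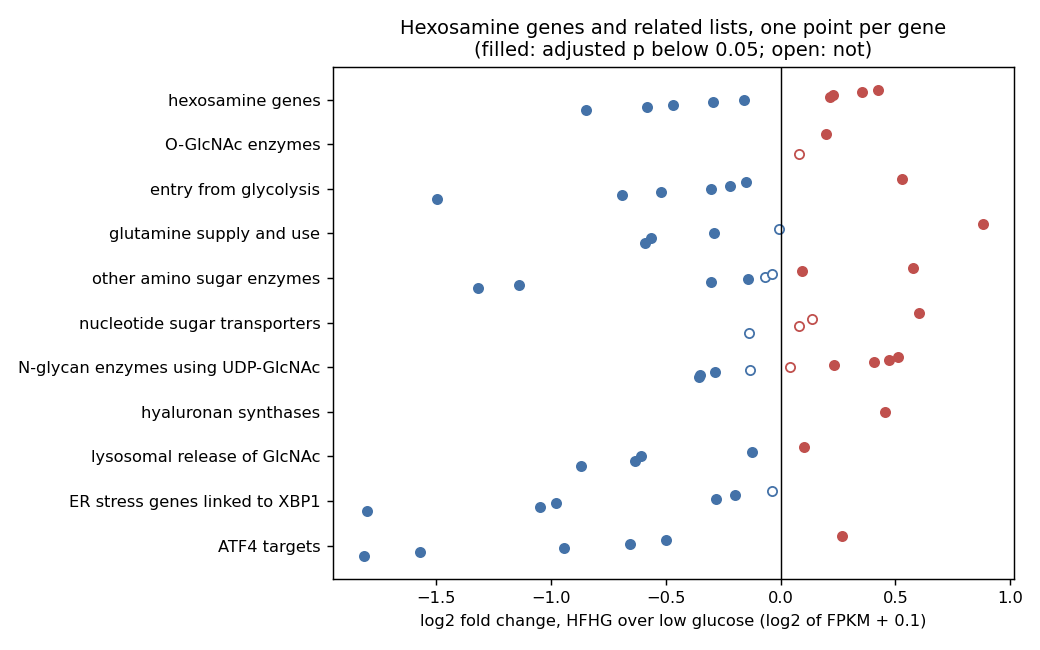
The log2 fold change, HFHG over low glucose, on the scale of log2(FPKM + 0.1) (x axis), of the 9 hexosamine genes (top row) and of the genes of 10 related lists that passed the low-value filter, 1 point per gene, red when higher and blue when lower in HFHG, filled when the adjusted p was below 0.05. The ER stress list and the lysosomal list lie mostly to the left of 0, down to −1.80 for Sdf2l1, while the N-glycan list lies on both sides.

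The genes with the pattern most like 3 of the members were found by Pearson's r of log2(FPKM + 0.1) over the 8 libraries, given as a description, since the points share the split between the media. For Gfpt1 these were Slit2, Tcf20 and Cttnbp2nl (r = 0.997, 0.996 and 0.996). Gfpt2 was followed most closely by D2hgdh (r = 0.995), Ifi35 (0.995) and Nxph3 (0.993). Nsd2 (r = 0.994), Ss18 (0.992) and Osmr (0.991) were most like Ogt. Such likeness was common: between 1362 and 1941 tested genes reached an r of at least 0.9 with each of the 3. Over the same 8 libraries, Gfpt2 and Ogt had an r of −0.97 and Gfpt1 and Nagk of −0.97. These pairs were not the only strong ones, with Gnpnat1 and Gnpda1 at 0.98, and Gfpt1 and Ogt had an r of only −0.76.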

How the data were processed

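RNA from 4 HFHG and 4 low glucose TSC samples was sequenced from a stranded mRNA library kit. The HFHG medium held 25.5 mM glucose and 300 µM palmitic acid, and the low glucose medium 5.5 mM glucose and DMSO. The submitters' processing notes name HISAT2 2.1.0 and mm10. The counting program, the annotation and its handling of strand and of shared reads are not given in the sources used here. The authors deposited FPKM values (fragments scaled by gene length and by mapped reads) for 19301 genes, 1 column per library, with no replicates pooled. Groups and replicate numbers came from the sample labels.

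The 9 genes were matched by symbol. The members and the related lists were chosen with earlier results of these data known. Genes that reached 0.5 FPKM in 4 or more libraries (11710) were tested with limma 3.58.1 in R 4.3.3 (empirical Bayes with trend) on log2(FPKM + 0.1), without covariates and with Benjamini-Hochberg adjustment. A fold change on this scale slightly understates changes of low genes. The 5 ratios were tested by exact permutation in Python 3.11.15. Scripts were tested on simulated data. Whole reads were recovered from the deposited FPKM with a tolerance of 0.001 reads for all 19301 genes, giving 34308108 to 37362725 reads per library, and used for depth and for limma's voom as an alternative. Named genes were all 9 members, up to 3 genes per list with the largest absolute log2 fold change among those called, and the 3 genes most correlated with Gfpt1, Gfpt2 and Ogt. Aga, Eogt, Xbp1, Styx, Dop1a, Guf1 and single cell type markers were named in addition, after their values were seen, and 1 gene that the rule names is not reported here. Gene positions are those of RefSeq for GRCm38.p6, the assembly behind mm10. Alternatives were other pseudocounts, filters and scalings, a replicate block, voom, and leaving out each library. The identity of paralogous proteins was planned and was not analysed here.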

Additional observations from a re-analysis of the deposited data

Results flagged for a closer look

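Within the groups of 4 libraries, each of the 9 genes and 5 ratios and Oga was checked for a library far from the others by Dixon's test at the 95% level, which chance passes in about 1 in 20 groups. Of these 30 checks 2 passed. Gnpda1 was at 11.8 FPKM in LG replicate 3, below the other low glucose libraries at 12.2 to 12.3, and this gap was 0.912 of the range of the group. It is small in FPKM, and all 4 values stood above the HFHG range. The ratio of Nagk to Gfpt1 plus Gfpt2 was 0.509 in LG replicate 4 and 0.442 to 0.449 in the other low glucose libraries, a gap of 0.888 of the range. This is the library that stood apart from its group over all genes, and without it the log2 difference between the media was −0.76 rather than −0.81.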

How the results depend on the processing

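The 9 genes were refitted under 17 other settings, 153 fits in all, of which 150 kept both direction and call, 3 kept the direction only and none reversed. The 3 were those of Gnpda2: its log2 fold change was −0.10 (adjusted p = 0.144) after rescaling to the same sum, −0.13 (0.0588) without HFHG replicate 3 and −0.13 (0.0583) without LG replicate 2. The number of genes lower in HFHG was then 4 instead of 5, and the number higher was 4 in each setting. With the replicate block limma called the same 9 genes (4 higher and 5 lower, adjusted p = 0.0295 for Gnpda2). Libraries with the same number did not deviate together (correlations −0.0207, −0.00955, −0.00558 and −0.0736), and none of the 4 HFHG libraries correlated best with its own number, so the numbers were not taken as pairs. Over leaving out 1 library, the log2 ratio of Gfpt2 to Gfpt1 ranged from −0.0213 to 0.0605. It reversed without HFHG replicate 2 (−0.00175), LG replicate 1 (−0.0213) and LG replicate 2 (−0.00207), differences far below its SE. The other ratios kept their direction, and with 7 libraries the permutation test cannot go below 0.0571. Rescaling moved the median of all genes by at most 0.0577 on the log2 scale. In the related lists, median-ratio scaling left 1 amino sugar gene higher in place of 2 and 0 lysosomal genes in place of 1, and it put 1 nucleotide sugar transporter lower in place of 0, as did quantile normalization, which lost the call of Has2 (0 in place of 1). Rescaling to the same sum, added for the lists after seeing the data, gave 2 transporters higher in place of 1, and fewer genes lower: 3 amino sugar and 3 lysosomal genes in place of 4 each, and 2 N-glycan genes in place of 3. Quantile normalization and median-ratio scaling each gave 4 lower N-glycan genes. The causes were not tested. RNA depth was even across libraries, and the number of libraries limits the precision.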
